A study of Homo sapiens with 11 samples.

Results

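The NADPH supply enzymes described here are 9 genes, PGD, TKT, TALDO1, ME1, IDH1, IDH2, MTHFD2, NNT and GSR. They were taken by symbol from a list written from general knowledge of the pathway, with earlier results of these data known. All 9 were found among the 60605 features of the deposited table. In ARPE-19 cells carrying Oct4, Sox2, Klf4 or all of these factors, the enzymes did not move together. GSR rose in Oct4 cells to 2.59 times the GFP mean and in OSK cells to 2.43 times. ME1 rose to 5.67 times the GFP mean in Sox2 cells, and did not pass the test in any other line. IDH1 was highest in OSK cells, at 2.29 times the GFP mean, and TKT fell to 0.605 times in Oct4 cells and 0.618 times in Sox2 cells but rose to 1.34 times in Klf4 cells.

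NADPH is the reduced, phosphorylated form of a nicotinamide coenzyme. Cells spend its electrons on the synthesis of lipids and nucleotides and on keeping glutathione and thioredoxin reduced, which is how peroxides are removed. It is made in the cytosol by the oxidative branch of the pentose phosphate pathway (PGD), by malic enzyme (ME1) and by isocitrate dehydrogenase 1 (IDH1), and in mitochondria by IDH2, by folate metabolism and by the transhydrogenase NNT. TKT and TALDO1 make no NADPH themselves: they return pentose phosphates to glycolysis and so let the oxidative branch run on. GSR, glutathione reductase, spends NADPH to regenerate reduced glutathione, so that the list holds 1 user beside the suppliers. The retinal pigment epithelium (RPE), the layer behind the photoreceptors, is known for a high oxidative load and for running isocitrate dehydrogenase in the reductive direction. The first enzyme of the oxidative branch is not analysed here.

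Polyadenylated RNA was sequenced from ARPE-19, an established human RPE line, in 11 libraries. All were stable ARPE-19 cells taken after 4 days of expression of a delivered open reading frame, with no other treatment named in the labels. The control cells expressed GFP, a fluorescent protein (3 libraries), and the others expressed Oct4, Sox2, Klf4 or Oct4, Sox2 and Klf4 together (OSK), with 2 libraries each. These are the reprogramming factors studied by the authors for oxidative resilience in RPE, per the series title. The library names of all factor lines carry a tag, mC, which the GFP names lack and the labels do not explain. In comparisons with GFP, whatever it stands for cannot be told apart from the factors. The labels name neither clones, vectors nor separate cultures, so that p-values measure the spread between these libraries, which may be technical. Values are the authors' normalised counts, in which reads per gene are divided by 1 scaling factor for each library. In bulk RNA, fewer cells of a type and less RNA per cell cannot be told apart.

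The reads recovered from the table came to between 15053300 and 19791775 per library. GFP replicate 1 and OSK replicate 1 stood apart, with 42956 and 32493 features that had a read, against 25853 to 26971 in the other libraries, so that results are also given without both. The delivered genes matched the labels: POU5F1, the gene of Oct4, averaged 67074 normalised counts in Oct4 and 19281 in OSK cells against 263 in GFP cells, SOX2 29123 in Sox2 and 17673 in OSK cells against 62, and KLF4 23173 in Klf4 and 24336 in OSK cells against 72. Of 12 RPE markers, 8 to 10 had at least 10 normalised counts in each library, but RPE65 never passed 4.63 and TTR never passed 4.97. Their summed level, mostly KRT8 and KRT18, was 33430 to 37122 in GFP, 25687 to 28703 in Klf4, 21400 to 22092 in Sox2, 18342 to 18825 in Oct4 and 15811 to 16115 in OSK cells (normalised counts). Its part in the differences between lines was not tested. Some single markers ran in other orders. PMEL averaged 5147 in GFP cells and was lowest in Sox2 cells, at 140. OTX2 averaged 1881 in GFP, 2320 in Klf4 and 1970 in OSK cells. The summed level of 4 blood markers was at most 82.4, in GFP replicate 1, and at most 5.42 in the libraries of the factor lines. That of 4 neuron markers, nearly all SYT1, was 1601 to 1958 in GFP, 1437 to 1774 in Klf4, 914 to 1036 in OSK, 604 to 771 in Oct4 and 624 to 641 in Sox2 cells, and its part in the results was not tested. Photoreceptor markers summed to at most 57.6.

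Several genes of NADPH supply are textbook targets of NRF2, a factor that binds the antioxidant response element. RefSeq promoter windows (GRCh38.p14), the 250 bases before the start site, were matched to 8 of the 9 enzymes in 10 windows. The IDH2 window lies within the gene as RefSeq places it, and its last bases are in none of the gene's GENCODE 29 transcripts. No window is printed for GSR. The letters of the core of that element, TGACNNNGC, were searched on both strands. They were found in 3 of the 10 windows, of PGD, ME1 and IDH1, and in 10.9% of 35116 windows of the same length. The bases G and C made up 68.4% of the PGD, 74.0% of the ME1 and 66.4% of the IDH1 window, beside a median of 58.0% over all windows. These 3 windows are shown because their genes followed different courses, ME1 highest in Sox2 cells, IDH1 highest in OSK cells and PGD highest in GFP cells. Each is written 5′ to 3′ along the gene, with the bases of the match in capitals.
ME1, chr6:83431052-83431301, minus strand: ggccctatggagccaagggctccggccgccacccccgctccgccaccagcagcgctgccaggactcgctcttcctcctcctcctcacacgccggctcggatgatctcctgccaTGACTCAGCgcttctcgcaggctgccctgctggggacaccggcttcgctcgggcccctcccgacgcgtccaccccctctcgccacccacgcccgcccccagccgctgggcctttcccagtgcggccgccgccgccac
IDH1, chr2:208255072-208255321, minus strand: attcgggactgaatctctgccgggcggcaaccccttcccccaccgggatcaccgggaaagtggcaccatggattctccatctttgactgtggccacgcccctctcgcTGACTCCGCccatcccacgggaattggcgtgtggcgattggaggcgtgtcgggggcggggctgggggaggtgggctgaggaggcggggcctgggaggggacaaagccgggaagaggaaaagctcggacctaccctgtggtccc
PGD, chr1:10398814-10399063, plus strand: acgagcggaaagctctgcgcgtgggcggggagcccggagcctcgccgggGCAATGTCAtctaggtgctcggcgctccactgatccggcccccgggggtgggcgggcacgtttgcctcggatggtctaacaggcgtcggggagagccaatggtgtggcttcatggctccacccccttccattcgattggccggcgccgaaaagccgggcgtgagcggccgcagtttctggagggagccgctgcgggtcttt

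The matches read TGACTCAGC at -137 to -129 from the ME1 start, TGACTCCGC at -143 to -135 from the IDH1 start and GCAATGTCA, the opposite strand, at -201 to -193 from the PGD start. Other letters searched were GGGNGTG, a KLF box, which was in the windows shown for PGD, ME1 and IDH1 and in 27.1% of all windows. CACGTG, an E-box, was in 1 NNT window and in 6.34% of all. TGATGNAA (an ATF4 element, 3.14% of all windows), CATTGTT (a SOX box, 2.87%) and ATGCAAAT (the octamer, 1.63%) were in none of the 10 windows. A match is a run of letters in these windows and describes nothing about binding.

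The pentose phosphate enzymes went separate ways. PGD makes NADPH by the oxidation of 6-phosphogluconate and lies at chr1:10399064-10420511 (RefSeq, GRCh38). It was at 2088, 2256 and 2195 normalised counts in the GFP libraries, 2011 and 2062 in Oct4, 1799.6 and 1779 in Sox2, 1442 and 1613 in Klf4, and 1686 and 1769 in OSK. All factor libraries were below all GFP libraries, and no pair of groups overlapped. Against GFP the log2 change was -0.28 ± 0.07 (SE) in Sox2 (adjusted p = 0.00315), -0.51 ± 0.07 in Klf4 (2.34e-05) and -0.34 ± 0.07 in OSK (9.12e-04). In Oct4 cells it was -0.10 ± 0.07, which did not pass (0.294).

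TKT, the transketolase that shuttles carbon units between sugar phosphates, lies at chr3:53224712-53256022. Its values were 7956, 8431 and 8489 normalised counts in GFP, 5209 and 4828 in Oct4, 4989 and 5268 in Sox2, 11769 and 10378 in Klf4, and 7908 and 8050.15 in OSK. The Oct4 and Sox2 libraries overlapped with each other and sat below all GFP libraries, the Klf4 libraries sat above them, and the OSK libraries fell within the GFP range or just under it. The log2 change from GFP was -0.73 ± 0.07 in Oct4 (adjusted p = 7.02e-07), -0.69 ± 0.07 in Sox2 (8.68e-07) and 0.41 ± 0.07 in Klf4 (2.65e-04). In OSK cells it was -0.06 ± 0.07 (0.591).

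TALDO1, the transaldolase of the same branch (chr11:747464-765012), moved less. It was at 1979, 2249.9 and 2124 normalised counts in GFP, 1928 and 2013 in Oct4, 2292 and 2493 in Sox2, 2942 and 2662 in Klf4, and 2337 and 2278 in OSK. Klf4 cells were above every other group. Only that line passed the test against GFP, with a log2 change of 0.40 ± 0.07 (adjusted p = 4.58e-04). In Sox2 cells the change was 0.18 ± 0.07 (0.0657), which passed without GFP replicate 2 alone (0.22, 0.0352, with a range of 0.0352 to 0.396 over the 22 alternatives).

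**Figure D1:**
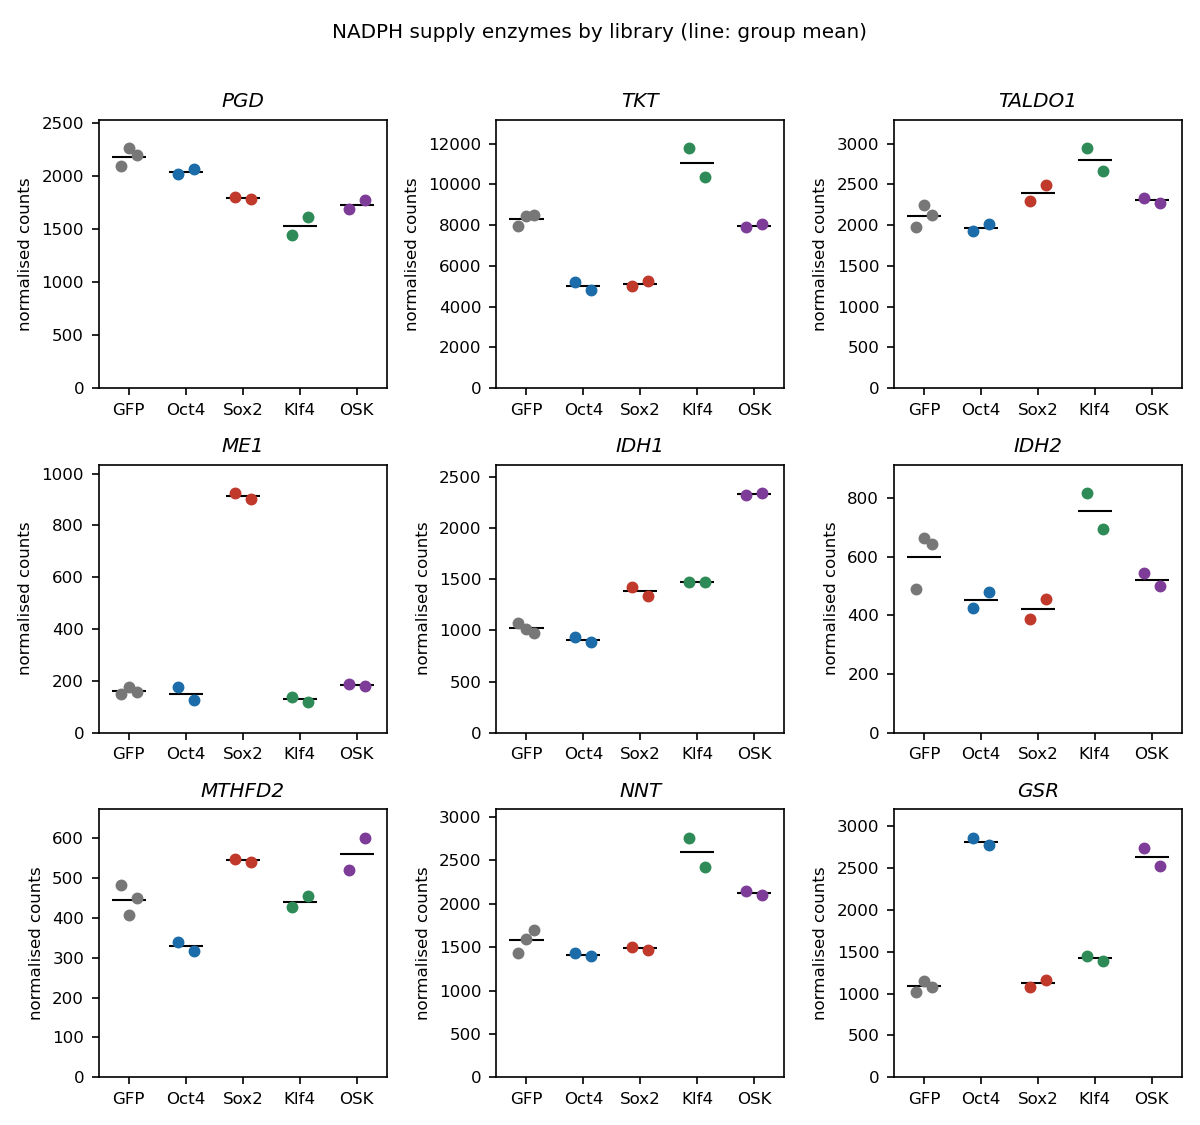
Normalised counts (vertical axes, linear, from 0) of the 9 enzymes in each library, by group on the horizontal axes, with points for libraries and lines for group means. The Sox2 libraries stand apart for ME1 (924.5 and 901), the Oct4 and OSK libraries for GSR (2521 to 2854), and the Klf4 libraries for TKT (10378 and 11769).

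Among the malic and isocitrate enzymes the largest change was that of ME1. ME1, the cytosolic malic enzyme, makes NADPH from malate and feeds lipid synthesis; it lies at chr6:83210402-83431051. It was at 149.95, 176 and 156.5 normalised counts in GFP, 176.5 and 126 in Oct4, 924.5 and 901 in Sox2, 138 and 119.98 in Klf4, and 188 and 180.4 in OSK. The Sox2 libraries were above all others and the remaining 4 groups lay between 119.98 and 188. In Sox2 cells the log2 change from GFP was 2.50 ± 0.14 (adjusted p = 1.08e-09, 95% interval 2.20 to 2.80). The change was -0.11 ± 0.14 in Oct4 (0.606), -0.32 ± 0.14 in Klf4 (0.102) and 0.20 ± 0.14 in OSK (0.31). Between 105 and 1052 reads stood behind each value.

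IDH1 lies at chr2:208236227-208255071 and makes NADPH from isocitrate in the cytosol and in peroxisomes. It was at 1070.5, 1019 and 976 normalised counts in GFP, 931 and 885 in Oct4, 1423 and 1341 in Sox2, 1474 and 1476 in Klf4, and 2328 and 2343 in OSK. No pair of groups overlapped, with OSK highest and Oct4 lowest. The log2 change from GFP was 1.19 ± 0.07 in OSK (adjusted p = 1.36e-09), 0.53 ± 0.07 in Klf4 (1.56e-05) and 0.44 ± 0.07 in Sox2 (7.24e-05). In Oct4 cells it was -0.17 ± 0.07 (0.0616), and it passed without GFP replicate 3 (-0.20, 0.0488) and with a higher filter on low values (0.0457, range 0.0457 to 0.286).

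IDH2, the mitochondrial enzyme with the same reaction (chr15:90083045-90102468), was at 490.6, 665 and 644 normalised counts in GFP, 424 and 478 in Oct4, 386 and 456 in Sox2, 817 and 696 in Klf4, and 543 and 502 in OSK. GFP replicate 1 was the lowest of its group, still above the Oct4 and Sox2 libraries, and the OSK libraries lay within the GFP range. The log2 change from GFP was -0.40 ± 0.13 in Oct4 (adjusted p = 0.0214) and -0.50 ± 0.13 in Sox2 (0.00461). The Oct4 call ended without GFP replicate 2 (0.082), GFP replicate 3 (0.0783) or Oct4 replicate 1 (0.182), and the Sox2 call without Sox2 replicate 1 (-0.38, 0.0871). In Klf4 cells the change was 0.34 ± 0.13 (0.0498), a call that ended under 17 of 22 alternatives, among them edgeR (0.0578) and leaving out GFP replicate 1 (0.20, 0.157) or Klf4 replicate 1 (0.23, 0.361). In OSK cells it was -0.19 ± 0.13 (0.272), which passed without GFP replicate 1 (-0.33, 0.0207).

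Of the mitochondrial enzymes outside that reaction, NNT rose in Klf4 and OSK cells. NNT couples the proton gradient of the inner membrane to the reduction of NADP by NADH and lies at chr5:43602675-43707396. It was at 1436, 1597 and 1697 normalised counts in GFP, 1426 and 1395 in Oct4, 1498 and 1472 in Sox2, 2755 and 2426 in Klf4, and 2139.9 and 2104 in OSK. The Klf4 libraries were highest, the OSK libraries came next, and both groups were above all other libraries. The log2 change from GFP was 0.72 ± 0.08 in Klf4 (adjusted p = 2.97e-06) and 0.43 ± 0.08 in OSK (3.24e-04). It was -0.08 ± 0.08 in Sox2 (0.429) and -0.16 ± 0.08 in Oct4 (0.131), the latter passing without GFP replicate 1 (-0.22, 0.017). NNT-AS1, on the opposite strand, was at 215 to 369 normalised counts, and the strand setting of the counting is not given in the sources used here, so that reads of this overlap cannot be assigned.

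MTHFD2 carries folate-bound carbon through mitochondria and reduces a nicotinamide coenzyme, NAD more readily than NADP; it lies at chr2:74198615-74217565. It was at 481, 406 and 448 normalised counts in GFP, 340.2 and 316 in Oct4, 548 and 539 in Sox2, 427 and 454 in Klf4, and 519 and 599 in OSK. The Oct4 libraries lay below all GFP libraries, the Sox2 and OSK libraries above them and the Klf4 libraries among them. The log2 change from GFP was -0.44 ± 0.10 in Oct4 (adjusted p = 0.0023), 0.29 ± 0.10 in Sox2 (0.0252), 0.33 ± 0.10 in OSK (0.0136) and -0.01 ± 0.10 in Klf4 (0.94). The Sox2 call ended without GFP replicate 2 (0.23, 0.0982), Sox2 replicate 1 (0.123) or Sox2 replicate 2 (0.0934), and with DESeq2 (0.0765). The OSK call ended without GFP replicate 2 (0.27, 0.0585) or OSK replicate 2 (0.23, 0.192). Its 7 pseudogene copies in the table reached at most 5.96 normalised counts.

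GSR, the glutathione reductase, on chromosome 8, was at 1017, 1154 and 1082 normalised counts in GFP, 2854 and 2769 in Oct4, 1082 and 1163 in Sox2, 1452 and 1393 in Klf4, and 2740.4 and 2521 in OSK. The Oct4 and OSK libraries were above every library of the other lines, the Klf4 libraries lay between, and the Sox2 libraries overlapped with GFP. The log2 change from GFP was 1.38 ± 0.07 in Oct4 (adjusted p = 6.78e-10), 1.28 ± 0.07 in OSK (1.40e-09) and 0.39 ± 0.07 in Klf4 (5.57e-04). In Sox2 cells it was 0.05 ± 0.07 (0.624, 95% interval -0.11 to 0.21). GSR was thus called higher in the 3 groups other than Sox2, while ME1 was called in Sox2 cells alone. The Oct4 change in GSR exceeded the Sox2 change by 1.32 on the log2 scale (3.55e-09), and the Sox2 change in ME1 exceeded the Oct4 change by 2.61 (3.43e-09).

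**Figure D2:**
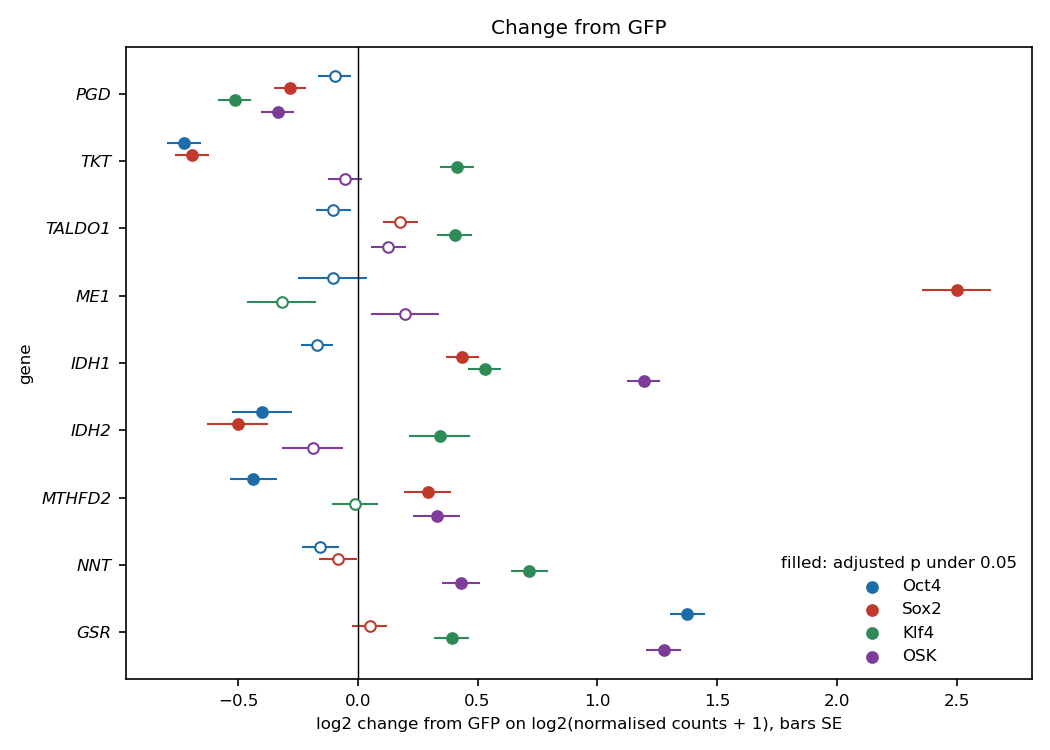
Log2 change from GFP (horizontal axis, on log2 of the normalised count + 1) for each enzyme in the 4 factor lines, with bars of 1 SE, and filled points where the adjusted p was under 0.05. ME1 in Sox2 cells (2.50) lies furthest right, followed by GSR in Oct4 (1.38) and OSK (1.28) cells and IDH1 in OSK cells (1.19).

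Counted by line, calls numbered 7 in Klf4, 6 in Sox2, 5 in OSK and 4 in Oct4 cells. All 9 enzymes passed the filter on low values, in every group. In Klf4 cells 7 of the 9 enzymes were called, where 33.5% of all 18828 features tested were, 6 higher (17.6% of features) and 1 lower (16%), the lower one being PGD. With the IDH2 call lost, as under edgeR, TMM rescaling and either other pseudocount, Klf4 cells had 6. In Sox2 cells 6 were called (41.6% of features), 3 higher, ME1, IDH1 and MTHFD2 (21.7%), and 3 lower, PGD, TKT and IDH2 (19.9%). In OSK cells 5 were called (39.7%), 4 higher, IDH1, MTHFD2, NNT and GSR (19.7%), and 1 lower, PGD (20%). In Oct4 cells 4 were called (37.3%), GSR higher (20.1%) and TKT, IDH2 and MTHFD2 lower (17.2%), so that the count was near the share of all features. The median log2 change of the 9 was 0.39 in Klf4, 0.20 in OSK, 0.05 in Sox2 and -0.16 in Oct4 cells, beside -0.02, -0.01, -0.02 and -0.02 over all features. These 4 comparisons share the GFP libraries. Without GFP replicate 1 and OSK replicate 1, 6 enzymes were called in Klf4, 6 in Sox2, 6 in OSK and 5 in Oct4 cells.

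Per enzyme, IDH1 and GSR were called higher in 3 of the 4 lines and lower in none, NNT higher in 2 and lower in none, and PGD lower in 3 and higher in none. TKT, IDH2 and MTHFD2 were called in both directions. The order of the group means was OSK, Klf4, Sox2, GFP, Oct4 for IDH1, and Oct4, OSK, Klf4, Sox2, GFP for GSR, in which neither Oct4 and OSK nor Sox2 and GFP passed the test. Of 36 pairs of neighbours in these orders, 13 passed the test. PGD descended from GFP through Oct4, Sox2 and OSK to Klf4 with no neighbours that passed (Oct4 and Sox2 did without GFP replicate 1, adjusted p = 0.0371), and ME1 had a single step that did, Sox2 to OSK. Per kilobase of exon (GENCODE 29), the level in GFP cells ran from TKT (2730 normalised counts per kb), TALDO1 (1570) and PGD (1160) through IDH1 (366), GSR (340), NNT (237) and IDH2 (213) to MTHFD2 (99.8) and ME1 (47.7). In Sox2 cells ME1 reached 271 per kb, above IDH2 (150) and NNT (223), and in Oct4 cells GSR reached 881 per kb, above IDH1 (325).

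The comparison of OSK with each single factor asks whether the factors together gave what 1 of them gave. GSR stood near its level under Oct4 alone, IDH1 was above its level under each single factor, and ME1 was far below its level under Sox2. GSR in OSK differed from Oct4 by -0.10 ± 0.08 on the log2 scale (adjusted p = 0.372, 95% interval -0.27 to 0.07), and exceeded Sox2 by 1.23 (5.33e-09) and Klf4 by 0.89 (6.78e-07). IDH1 in OSK exceeded Oct4 by 1.36 ± 0.07 (8.35e-10), Sox2 by 0.76 (5.83e-07) and Klf4 by 0.66 (6.88e-06). The delivered SOX2 averaged 17673 normalised counts in OSK and 29123 in Sox2 cells, and its part in the ME1 level was not tested. ME1 in OSK was 0.202 times its Sox2 mean (log2 difference -2.31 ± 0.16, 8.90e-09). Its difference from Oct4 was 0.30 ± 0.16 (0.144) and passed without Oct4 replicate 1 (0.54, 0.0173).

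TKT and NNT in OSK cells lay between the single factors. TKT exceeded Oct4 by 0.67 ± 0.08 (adjusted p = 3.75e-06) and Sox2 by 0.64 (6.32e-06) and was below Klf4 by a log2 difference of -0.47 (3.24e-04). NNT exceeded Oct4 by 0.59 ± 0.09 (3.91e-05) and Sox2 by 0.52 (1.47e-04), and its difference from Klf4 was -0.29 (0.0253). Against Oct4, 6 of the 9 enzymes were called (40.3% of features), 5 higher (18.4%) and 1 lower (21.9%). Against Sox2, 5 were called (40.5%), 4 higher (20%) and 1 lower (20.5%), the lower one ME1. Against Klf4, 8 were called (21.5%), 4 higher (9.56%), ME1, IDH1, MTHFD2 and GSR, and 4 lower (11.9%), TKT, TALDO1, IDH2 and NNT.

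The count against Klf4 rests on few libraries: it was 3 without OSK replicate 2, 4 without Klf4 replicate 1 and 5 without OSK replicate 1, and only TKT, IDH1 and GSR were called under all 22 alternatives. Over these, the adjusted p reached 0.262 for NNT, 0.204 for TALDO1, 0.164 for ME1, 0.138 for IDH2 and 0.284 for MTHFD2. Against Oct4, the calls of PGD (-0.24, adjusted p = 0.0181) and TALDO1 (0.23, 0.0327) ended without OSK replicate 1 (0.122 and 0.144), Oct4 replicate 1 (0.0502 and 0.16) or Oct4 replicate 2 (0.0925 and 0.0652), and that of TALDO1 also without OSK replicate 2 (0.0871). The call of MTHFD2 against Oct4 (0.77, 2.81e-05) held under every alternative. Against Sox2, IDH2 (0.31, 0.0872) passed without GFP replicate 1 (0.0239).

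**Figure D3:**
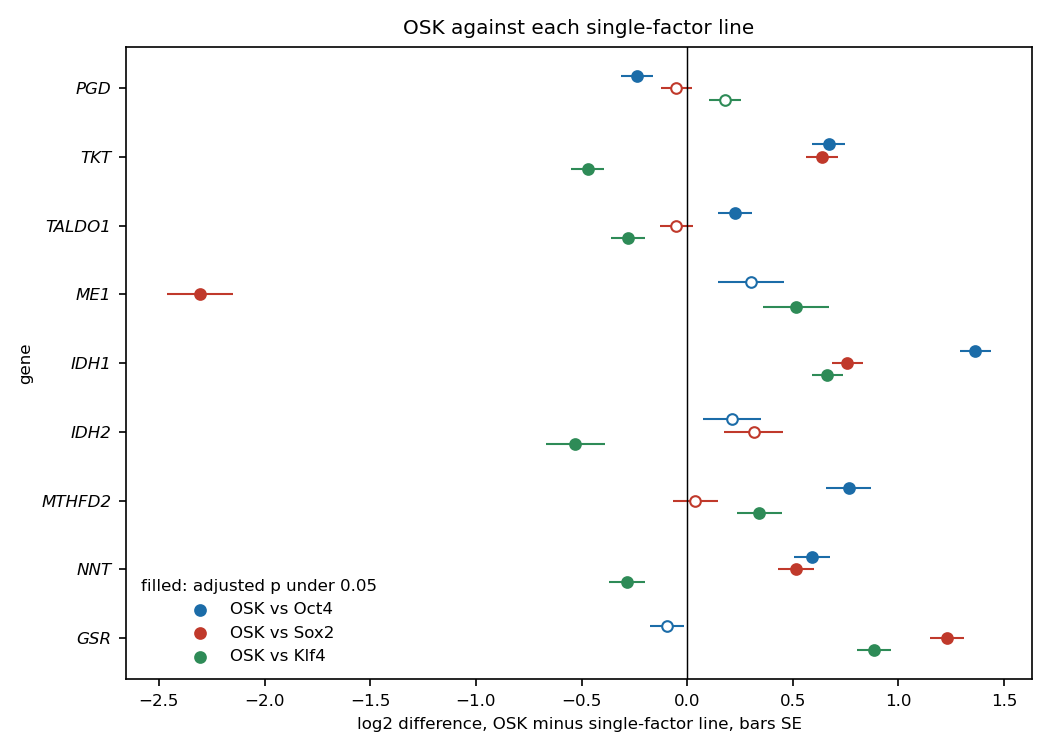
Log2 difference of OSK from each single-factor line (horizontal axis, on log2 of the normalised count + 1) for the 9 enzymes, with bars of 1 SE, and filled points where the adjusted p was under 0.05. IDH1 lies to the right of 0 against all 3 lines (0.66 to 1.36), while GSR does so against Sox2 and Klf4 (1.23 and 0.89) and ME1 lies at -2.31 against Sox2.

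The single-factor lines also differed from each other. Between Oct4 and Klf4 cells 8 enzymes were called (41.7% of features), all but ME1 (0.21 ± 0.16, adjusted p = 0.308, which passed without Oct4 replicate 2, 0.46 and 0.0386), and GSR and PGD were the ones higher in Oct4 cells. TKT differed by -1.14 ± 0.08 on the log2 scale (adjusted p = 7.59e-09) and NNT by -0.87 (4.86e-07). Between Sox2 and Klf4 cells 8 were called (40.8%), all but IDH1, which differed by -0.10 ± 0.07 (0.342, 95% interval -0.25 to 0.06). ME1 was 7.09 times higher in Sox2 than in Klf4 cells (log2 difference 2.82 ± 0.16, 6.59e-10). Without Sox2 replicate 1 or without Klf4 replicate 1 that count was 5, with PGD, TALDO1 and MTHFD2 lost in both cases, PGD and MTHFD2 were lost without Sox2 replicate 2 (0.0754 and 0.0985), and MTHFD2 without Klf4 replicate 2 (0.0589). Between Oct4 and Sox2 cells 5 were called (33.4%), namely TALDO1, ME1, IDH1, MTHFD2 and GSR, of which GSR was higher in Oct4 cells. TKT did not pass between Oct4 and Sox2 (-0.03 ± 0.08, 0.805). The TALDO1 call between these lines (-0.28, 0.0131) ended without Oct4 replicate 1 (0.0878) or Sox2 replicate 2 (0.133).

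When the log2 changes of Oct4, Sox2 and Klf4 cells were added up and OSK was set against that sum, 5 enzymes differed in OSK cells (35.9% of features), 3 above the sum (15.6%) and 2 below it (20.3%). Those above were TKT, whose sum was -1.0 and whose OSK change was -0.06 (difference 0.95 ± 0.14, adjusted p = 7.25e-05), PGD with -0.90 and -0.34 (0.56 ± 0.14, 0.00437), and IDH1 with 0.80 and 1.19 (0.40 ± 0.14, 0.0318). The IDH1 difference is the weakest of these: it did not pass under 11 of 21 alternatives, among them DESeq2 (0.0563) and leaving out 1 library, whether GFP replicate 1 (0.33, 0.0664) or 2, Klf4 or OSK replicate 1 or 2, Oct4 replicate 2 or Sox2 replicate 2 (adjusted p from 0.0227 to 0.0996 over all alternatives). Those below were ME1, with a sum of 2.08 and an OSK change of 0.20 (-1.88 ± 0.29, 8.47e-05), and GSR, with 1.82 and 1.28 (-0.54 ± 0.15, 0.00859). NNT lay at its sum within error, with 0.48 and 0.43 (-0.04 ± 0.16, 0.856, 95% interval -0.38 to 0.29). IDH2 passed without GFP replicate 1 (0.65, 0.0243), TALDO1 without GFP replicate 2 (-0.44, 0.0408) or Klf4 replicate 2 (-0.43, 0.0479), and MTHFD2 without GFP replicate 2 (0.62, 0.033) or OSK replicate 1 (0.59, 0.0414). The delivered POU5F1 and SOX2 were lower in OSK than in the single-factor lines, as given above, so that the sum is not at matched factor levels.

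**Figure D4:**
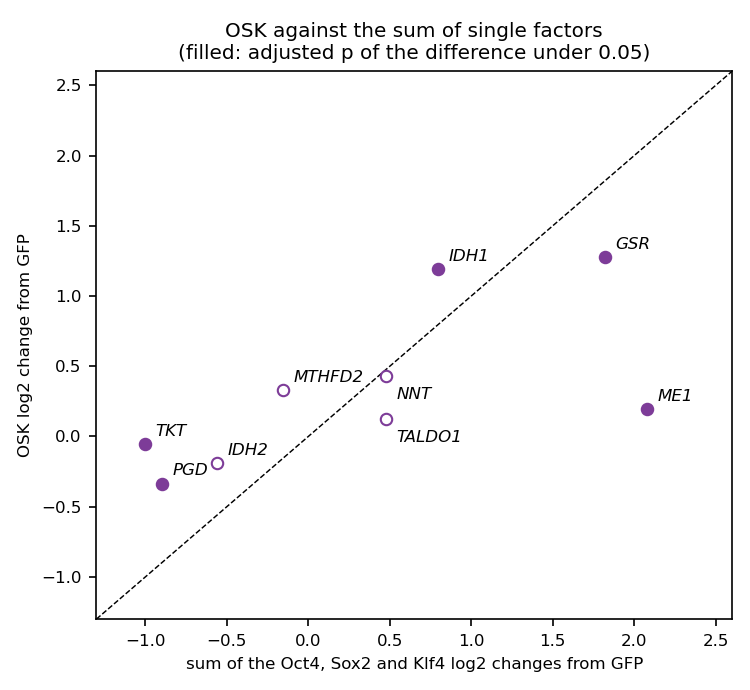
Log2 change from GFP in OSK cells (vertical axis) against the sum of the Oct4, Sox2 and Klf4 log2 changes (horizontal axis) for the 9 enzymes, with the dashed line where both are equal. Filled points are enzymes whose difference had an adjusted p under 0.05, and ME1 (sum 2.08, OSK 0.20) lies furthest below the line.

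Ratios of 2 enzymes' normalised counts were taken within each library, as a description of RNA that is not corrected for gene length and measures no flux. IDH1 over IDH2, the cytosolic over the mitochondrial isoenzyme, was 2.18, 1.53 and 1.51 in GFP, 2.20 and 1.85 in Oct4, 3.69 and 2.94 in Sox2, 1.80 and 2.12 in Klf4, and 4.29 and 4.67 in OSK. The Sox2 and OSK libraries were above all others and did not overlap. PGD over TKT, the oxidative over the non-oxidative branch, was 0.262, 0.268 and 0.259 in GFP, 0.386 and 0.427 in Oct4, 0.361 and 0.338 in Sox2, 0.123 and 0.155 in Klf4, and 0.213 and 0.22 in OSK. It was above GFP in Oct4 and Sox2 libraries and below it in Klf4 and OSK libraries. ME1 over IDH1 was 0.65 and 0.672 in Sox2 cells and between 0.077 and 0.19 in all other libraries, lowest in OSK. TKT over TALDO1 was 2.11 and 2.18 in Sox2, 2.4 and 2.7 in Oct4 and 3.38 or more in every other library.

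**Figure D5:**
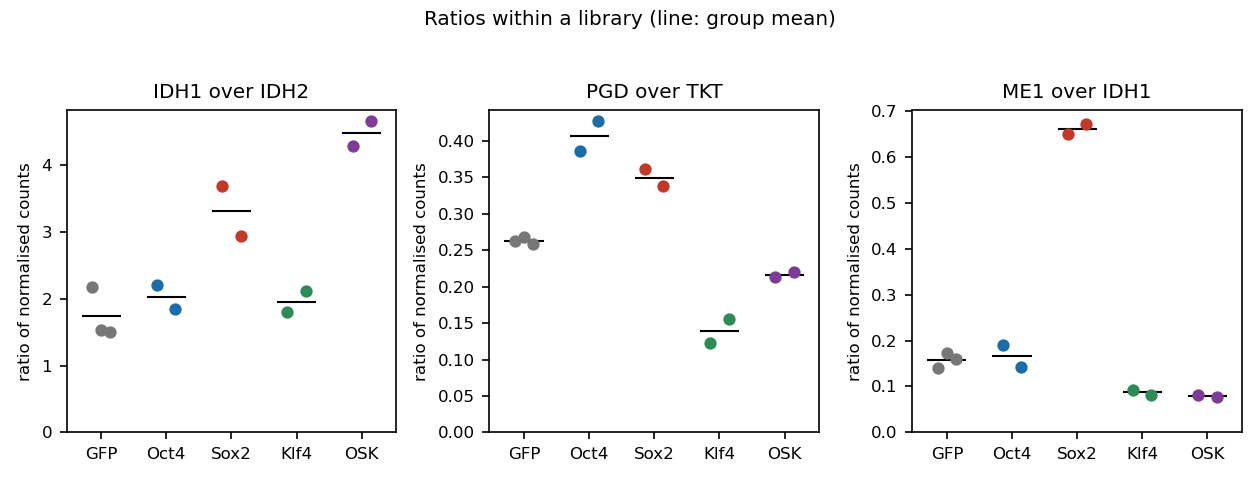
Ratios of normalised counts within each library (vertical axes, linear, from 0) by group, with points for libraries and lines for group means. IDH1 over IDH2 reaches 4.29 and 4.67 in OSK, PGD over TKT falls to 0.123 and 0.155 in Klf4, and ME1 over IDH1 stands at 0.65 and 0.672 in Sox2 libraries.

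The wider pathway was followed in 5 lists of 51 genes, of which 47 were tested. Called were 17 in Oct4 (7 higher, 10 lower), 21 in Sox2 (9 and 12), 22 in Klf4 (17 and 5) and 24 in OSK cells (15 and 9), or 36.2%, 44.7%, 46.8% and 51.1% of those tested, where 37.3%, 41.6%, 33.5% and 39.7% of all features were called. The shares in Oct4 and Sox2 cells were near those of all features. The median log2 change of the lists was -0.11, -0.06, 0.12 and 0.10, beside -0.02, -0.02, -0.02 and -0.01 over all features. By list, the other pentose phosphate genes had 1, 3, 2 and 2 calls of 8 tested in Oct4, Sox2, Klf4 and OSK cells. The citrate, isocitrate and malate genes had 4, 4, 1 and 6 of 11. The folate genes had 4, 4, 6 and 4 of 8, those of NAD and NADP synthesis 4, 3, 4 and 4 of 8, and the users of NADPH 4, 7, 9 and 8 of 12.

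Among the users, TXNRD1, the cytosolic thioredoxin reductase, was called lower in every factor line. TXNRD2, its mitochondrial counterpart, was called higher in Sox2 (log2 change 0.56 ± 0.10, adjusted p = 2.06e-04), Klf4 (0.72, 2.62e-05) and OSK cells (0.60, 1.08e-04). TXNRD1 was at 17018, 17344 and 17728 normalised counts in GFP, 11023 and 11293 in Oct4, 5025 and 5514 in Sox2, 7979 and 8595 in Klf4, and 6607 and 7374 in OSK. No pair of groups overlapped, and all factor libraries were below all GFP libraries. Its log2 change was -0.64 ± 0.07 in Oct4 (adjusted p = 2.99e-06), -1.72 in Sox2 (2.85e-11), -1.07 in Klf4 (1.31e-08) and -1.31 in OSK (8.79e-10). NOX4, an NADPH oxidase that makes hydrogen peroxide, rose by 1.16 ± 0.14 in Sox2 cells, from 985.4 to 2159 (adjusted p = 3.72e-06), but fell by 0.64 in Klf4 (0.00162) and by 0.99 in OSK cells (2.19e-05).

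MTHFD1L, the mitochondrial formate-releasing enzyme next to MTHFD2 in folate metabolism, rose in all 4 factor lines. It was at 731, 764 and 794 normalised counts in GFP, 959 and 1011 in Oct4, 1556 and 1878 in Sox2, 3284 and 2886 in Klf4, and 3198 and 3234 in OSK. All libraries of the 4 factor lines were above GFP, and the log2 change was 0.37 ± 0.08 in Oct4 (adjusted p = 0.00259), 1.16 in Sox2 (1.69e-08), 2.01 in Klf4 (7.49e-11) and 2.08 in OSK (4.17e-11). SHMT1, the cytosolic serine hydroxymethyltransferase, fell by 0.71 ± 0.07 on the log2 scale in Oct4 cells (1.36e-06), by 0.87 in Sox2 (1.01e-07) and by 0.22 in OSK cells (0.0244), and rose by 0.24 in Klf4 cells (0.0173). ME2, the mitochondrial NAD-linked malic enzyme, rose by 1.09 ± 0.11 in Sox2 cells (6.17e-07), where ME1 also rose, and by 0.46 in Oct4 cells (0.00315). NMNAT3, which makes NAD in mitochondria, rose by 1.02 ± 0.16 in Oct4 cells (1.22e-04) and fell by 1.29 in OSK (1.02e-05) and by 0.76 in Klf4 cells (0.00173).

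In Klf4 cells NOS3, the endothelial nitric oxide synthase, and ALDH1L1, a folate dehydrogenase that makes NADPH, were also among the genes with the largest changes, from low levels. NOS3 was at 48.6 and 56.0 normalised counts in Klf4, and at 18.9, 0 and 0 in GFP, the value above 0 being that of GFP replicate 1 (log2 change 4.30 ± 1.08, adjusted p = 0.00571). Its Klf4 mean was 8.31 times its GFP mean. The log2 change, taken from means of log2 values, gives a larger ratio. Of 3 endothelial markers, CDH5 and PECAM1 were at 0 in both Klf4 libraries, while VWF was at 46.3 and 33.1, and the sum of all 3 was 124, 2.02 and 1.94 in the GFP libraries, and their part in the result was not tested. ALDH1L1 was at 164 and 135 in Klf4 and at 110.2, 46.5 and 43.7 in GFP, where GFP replicate 1 was again the highest (1.28 ± 0.32, 0.00573).

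The genes whose values ran most like each enzyme's were sought by Pearson r of log2(value + 1) over the 11 libraries, among 4724 features with a group mean of at least 50 and group means that spanned at least 1 on the log2 scale. Since the libraries fall into 5 groups, such an r mostly describes the group means. For GSR the closest were TRAF3IP2 (r = 0.978) and POU5F1 itself (0.97), the delivered gene in Oct4 and OSK cells. For ME1 they were SNX16 and EIF2AK4 (both 0.986), and for NNT MKNK2 and ADAM15 (both 0.985). FEM1C was among those closest to IDH1 (0.984). For TKT they were FAM102A (0.987) and CXXC5 (0.986), for TALDO1 NQO1 (0.955) and PEMT (0.948), and for PGD ZCCHC18 (0.966) and PDIA5 (0.937). For IDH2 they were BTG2 (0.963) and PRDM16 (0.961), and for MTHFD2 TFPI2 (0.943) and THSD7A (0.941).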

How the data were processed

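The 11 polyA RNA-seq libraries were grouped by their titles. The deposited table holds a signal, normalised counts per gene, which the values show to be whole reads that the authors divided by 1 scaling factor for each library. STAR 2.7.1a, featureCounts 1.6.2 and the builds GRCh38 (hg38) and GRCm38 (mm10) are listed in the submitters' processing notes with no role or order; annotation, strand setting and normalisation are not given in the sources used here. Whole reads were recovered by dividing by the value of 1 read (all values up to 200 were whole multiples within 0.0061), giving 15053300 to 19791775 reads per library. Precision is lowest for genes with few reads.

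The main test was limma 3.58.1 (R 4.3.3, eBayes with trend) on log2(value + 1), a scale on which the added 1 shrinks changes of low genes. It was fitted over all 11 libraries with a mean per group, on the 18828 features that reached 10 in 2 or more libraries (6 residual and 9.21 prior degrees of freedom), with Benjamini-Hochberg adjustment over all of them and a threshold of 0.05. The 9 enzymes, the 5 lists and the tests were chosen with earlier results of these data known. Named from the lists were at most 4 genes per comparison with GFP, those with the largest change among genes with an adjusted p under 0.05, a group mean of at least 50 and libraries that did not overlap, and for each enzyme the 2 features with the highest r. Some genes that this rule names are not reported here. Gene coordinates are from RefSeq and promoter sequences from RefSeq GRCh38.p14, while exon lengths and overlapping genes are from GENCODE 29. The alternatives were edgeR 4.0.16 and DESeq2 1.42.0 on recovered reads, other scaling, pseudocounts (0.5 and 5) and filters (none, or 50), fewer groups in the fit, a replicate block and leaving out each library. The pair of libraries with most features was left out as an alternative added after seeing the data.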

Additional observations from a re-analysis of the deposited data

How the results depend on the processing

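Of 99 pairs of an enzyme and a comparison, 67 were called, and 50 of these were called under each of the alternatives run (22 at most). The other 17 lost the call under at least 1, 11 further pairs gained one, and no called pair turned its direction. By comparison, 3 of 4 calls held throughout for Oct4 against GFP, 4 of 6 for Sox2, 6 of 7 for Klf4 and 4 of 5 for OSK. The count of enzymes called moved by over 1.5 times in 2 comparisons. OSK against Klf4 had 8, with 4 when no filter was used and 3 to 8 on leaving out 1 library, and Sox2 against Klf4 had 8, with 5 when no filter was used and 5 to 8 on leaving out 1 library; the cause was not tested. Over all features, calls between OSK and Klf4 numbered 4049, but 2580 without Klf4 replicate 1 and 2539 without OSK replicate 2. The pairs that turned direction were small differences that were not called, with log2 values on leaving out 1 library of -0.35 to 0.14 for ME1 (Oct4 against GFP), -0.002 to 0.10 for GSR (Sox2 against GFP), -0.077 to 0.045 for MTHFD2 (Klf4 against GFP), -0.11 to 0.01 for TALDO1 and -0.066 to 0.14 for MTHFD2 (OSK against Sox2), -0.087 to 0.023 for TKT and -0.019 to 0.22 for IDH2 (Oct4 against Sox2), -0.029 to 0.46 for ME1 (Oct4 against Klf4) and -0.15 to 0.087 for NNT (OSK against the sum). Without GFP replicate 1 and OSK replicate 1, MTHFD2 (Klf4 against GFP) was at 0.045 and NNT against the sum at 0.075. Where a group keeps 1 library, that library is assumed to vary like the other groups. Of 20 same-numbered pairs of libraries, 2 correlated above 0.1 in their deviations from the group mean. Both of them were GFP with OSK (0.44 and 0.31), and the lowest was at -0.07. In a group of 2 libraries the deviations mirror each other, so that the 20 pairs are not separate checks. Whether the replicate numbers pair the libraries cannot be settled this way. With the replicate block, 3 enzymes were called in Oct4, 5 in Sox2, 7 in Klf4 and 5 in OSK cells against GFP. TMM rescaling moved the median of all features by less than 0.02. The sum contrast uses all groups, so that a fit of only the compared groups was not run for it. Fewest reads stood behind ME1 (105) and MTHFD2 (276).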
